A study of Homo sapiens with 8 samples.

Results

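The genes described here are 35 genes of the ATF4 stress response and of cytosolic tRNA charging, chosen by name, and all 35 of them were found among the 15811 genes of the deposited table. They were measured by total RNA sequencing in H9, a long-established line of human embryonic stem cells. Libraries were made from 4 samples of an EXT1-/- line, cut at the EXT1 locus with CRISPR/Cas9 and described by the submitters as lacking heparan sulfate, the sugar polymer of the cell surface that EXT1 helps to build, and from 4 samples of unedited wild-type (WT) H9 cells. Both groups were seeded with 5 µM Y-27632, a kinase inhibitor that helps dissociated stem cells survive, and both were collected 28 h after induction with 6 µM CHIR-99021, a GSK3 inhibitor that drives stem cells towards mesendoderm. The one comparison is therefore of induced EXT1-/- cells with induced WT cells. A single edited line stands for the genotype. Nothing in the labels states whether the 4 samples of a group came from separate cultures, and the p-values rest on a spread among libraries that may be technical.

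ATF4 is a basic leucine zipper transcription factor at the end of the integrated stress response. Kinases that sense lack of amino acids, haem, double-stranded RNA or unfolded protein phosphorylate the initiation factor eIF2, which slows most translation but favours translation of the ATF4 mRNA. ATF4 protein then pairs with C/EBP factors and switches on genes for amino acid synthesis and import, serine and one-carbon metabolism and many cytosolic aminoacyl-tRNA synthetases, the enzymes that load each amino acid onto its tRNA. Because ATF4 is controlled largely in translation, its mRNA level is not a measure of its protein, which was not measured here.

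The DNA element that ATF4 and a C/EBP partner bind is shown because it is the known route by which ATF4 acts on its targets. Promoters (RefSeq, GRCh38.p14, 250 bases before to 50 bases after the annotated start) were matched for 28 of the 35 genes and searched on both strands for TGATGNAAN. It was found in 8 of the 28 (28.6%). The share was 1.55% among the 10867 promoters of genes in the deposited table, and 3.67% among all 27305 promoters of the same length. Because the 35 genes were chosen by name as ATF4 response and synthetase genes, the shares were not compared by a test. The other 20 of the 28, among them those of ATF4, DDIT3, TRIB3, DDIT4, PHGDH and PSAT1, do not hold these letters in the window. The windows below run 5′ to 3′ on the strand of the gene, with the match in capitals, which reads as its reverse complement where it begins with GTTGCATCA or ATTGCATCA.
ASNS, chr7:97872458-97872486, minus strand: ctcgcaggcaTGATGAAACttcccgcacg
CHAC1, chr15:40953251-40953279, plus strand: ctcccctgccGTTGCATCActcctgccag
AARS, chr16:70289676-70289704, minus strand: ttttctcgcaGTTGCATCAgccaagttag
CARS, chr11:3057408-3057436, minus strand: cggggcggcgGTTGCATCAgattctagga
IARS, chr9:92293693-92293721, minus strand: ttttcagcgcGTTGCATCAcctccgtgcg
MARS, chr12:57488053-57488081, plus strand: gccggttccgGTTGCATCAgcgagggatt
NARS, chr18:57621804-57621832, minus strand: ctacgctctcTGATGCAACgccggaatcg
TARS, chr5:33440956-33440984, plus strand: gcgcctttcgATTGCATCAgctggtccag
Apart from ASNS, which differs at the free position, all of these hold the same TGATGCAA core, and 6 of the 8 are synthetase genes. A match is a description of the letters and not a measured binding site. A window without these letters does not show that the gene lacks the element, because only this window and this pattern were searched. In the 8 genes with a match the log2 fold change (EXT1-/- over WT) had a median of 0.08 and ran from -0.33 for ASNS to 0.25 for AARS. AARS alone passed the test described below, which 32.0% of all genes passed. In the 20 matched genes without these letters the median was -0.07, the range was -1.11 to 0.59, and 6 passed, each lower in EXT1-/- cells. Of all genes, 16.8% were called lower, and the difference between genes with and without a match was not tested.

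The values are normalised read counts as the authors deposited them, with 37737058 to 40017763 per library and 38.9 of them to 1 CPM, the usual depth-scaled count. EXT1 itself had 890, 894, 915 and 980 normalised counts in EXT1-/- replicates 1 to 4, against 1776, 1499, 1464 and 1508 in WT replicates 1 to 4, a log2 fold change of -0.76 ± 0.07 (SE). The groups did not overlap (two-sided exact permutation test over 70 divisions of the libraries, p = 0.0286, the smallest this design allows), and the transcript was still present in the edited line. There were 2 sets of libraries by their share of mitochondrially encoded transcripts, with no label for them. That share was 9.18 and 9.38% in EXT1-/- replicates 1 and 4 and 10.67% in WT replicate 1, called the high set, against 5.32 to 5.40% in the other EXT1-/- libraries and 5.30 to 5.43% in the other WT libraries, called the low set. Markers of the labelled state were present in every library: the summed counts of 5 pluripotency genes were 115592 to 128283 in EXT1-/- cells and 150125 to 153099 in WT cells, and those of 5 primitive streak genes were 11256 to 17417 in EXT1-/- cells and 31086 to 35294 in WT cells. Marker sums of other cells did not overlap between the genotypes for the neuroectoderm, neural crest and fibroblast lists, and overlapped for the amnion list. No marker sum was tested. The 3 of 5 neuroectoderm markers in the table summed to 2627 to 4571 in EXT1-/- cells and 248 to 276 in WT cells, and the 3 of 5 neural crest markers to 4883 to 12203 in EXT1-/- cells and 474 to 626 in WT cells. The corresponding 3 amnion markers summed to 3435 to 5981 in EXT1-/- cells and 3267 to 3608 in WT cells, and the 3 fibroblast markers to 3754 to 4541 in EXT1-/- cells and 6081 to 7342 in WT cells. Not in the table were PAX6 and SOX1 (neuroectoderm), SOX10 and FOXD3 (neural crest), GATA3 and ISL1 (amnion), and DCN and LUM (fibroblast). The sums of these 4 lists rest on the genes left, and values of single markers are not given. No marker in the table summed to 0, but every gene in it reached 0.977 CPM or more in 2 libraries, so none could. The part of cell composition in the results below was not tested, and in bulk RNA fewer cells of a type and less RNA per cell cannot be told apart.

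The response genes and synthetases differed between the genotypes by small amounts. At an adjusted p below 0.05 (limma on log2(count + 1), Benjamini-Hochberg over all genes), 8 of the 35 passed (22.9%), where 32.0% of all genes did. AARS was higher in EXT1-/- cells, and TRIB3, DDIT4, STC2, VLDLR-AS1, PHGDH, DARS and KARS were lower. Over all genes, 15.2% were called higher and 16.8% lower. The median log2 fold change of the 35 was -0.03, beside 0.01 over all genes, and the median size of the change, sign ignored, was 0.15 beside 0.22. For 26 of the 35 the change was smaller than 0.25 on the log2 scale. DDIT4 was the single gene changed at least 2-fold, a size reached by 7.77% of all genes. No EXT1-/- value overlapped the WT range in 9 of the 35 (25.7%), beside 33.5% of all genes. Leaving out WT replicate 2, 3 or 4 left 5 of the 8 calls. In a model that also holds a term for the library set, 23 of the 35 passed (65.7%), beside 51.8% of all genes; 10 were higher, beside 26.2% of all genes, and 13 lower, beside 25.6%. Within the low set alone 20 passed (57.1%), beside 45.0% of all genes; 8 were higher, beside 20.9%, and 12 lower, beside 24.1%. All 8 genes called from the 8 libraries passed in the same direction in both of these fits, which use the same libraries or a part of them.

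**Figure D1:**
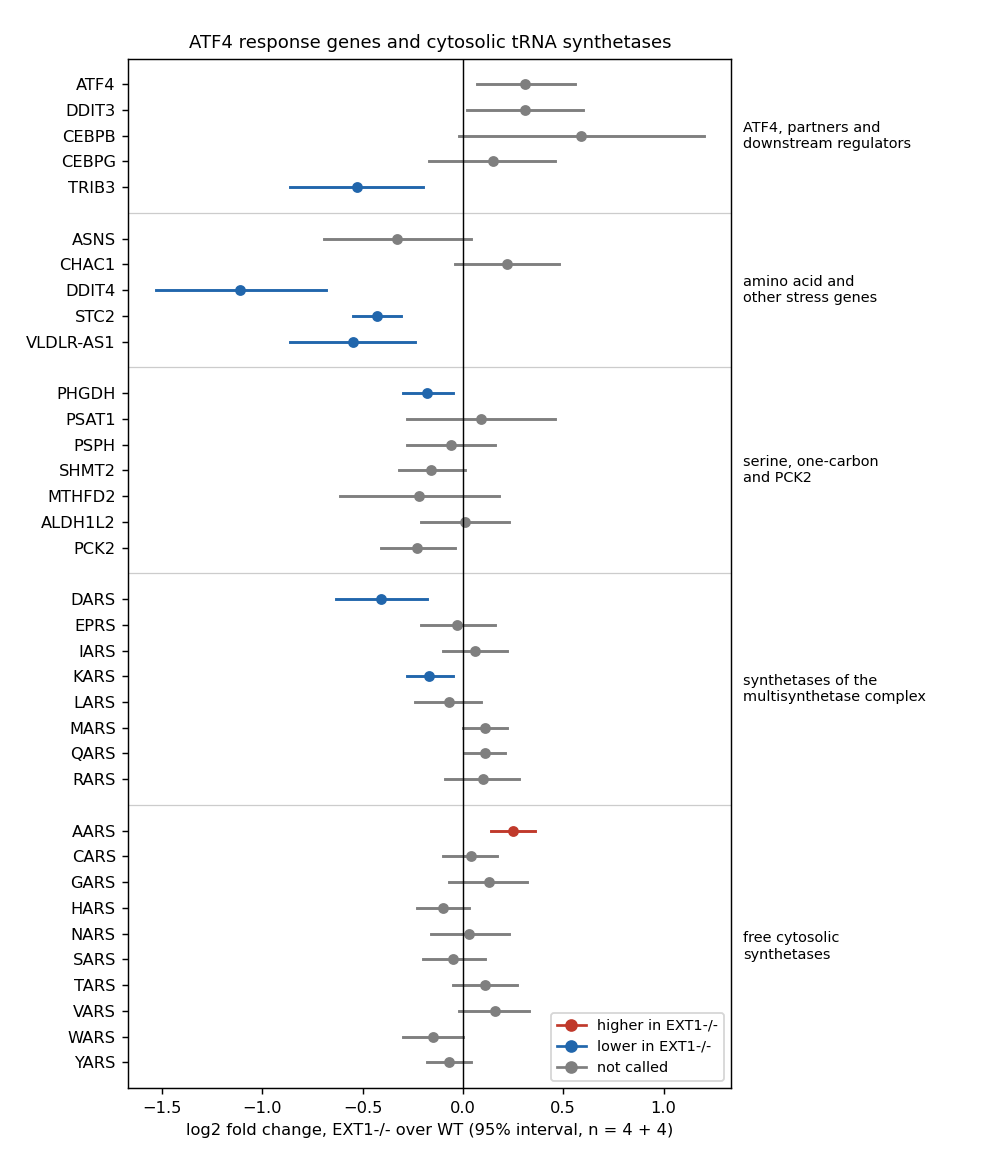
Log2 fold change of each of the 35 genes, EXT1-/- over WT, on the log2(count + 1) scale, with 95% limma intervals (4 libraries per group); colours mark the call at an adjusted p below 0.05. The synthetases in the lower groups lie close to 0, between -0.41 for DARS and 0.25 for AARS, while DDIT4 stands farthest from 0 at -1.11.

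ATF4 (chromosome 22, 39519695 to 39522685, plus strand; GRCh38, GENCODE 29, as for all gene coordinates here) was among the most abundant of these transcripts. It had 26576, 20325, 21676 and 27878 normalised counts in EXT1-/- replicates 1 to 4, against 20881, 17821, 18669 and 19742 in WT replicates 1 to 4. EXT1-/- replicate 2 lay below WT replicate 1, so the groups overlapped, and the high-set library or libraries were the highest of each genotype. The log2 fold change was 0.31 ± 0.11 (SE) with an adjusted p of 0.0550 (limma), just short of the threshold. With the set in the model ATF4 passed, at 0.24 (adjusted p 0.00400). It also passed in the low-set libraries, at 0.16 (adjusted p 0.0352), and without EXT1-/- replicate 2, EXT1-/- replicate 3 or WT replicate 1 (0.39, 0.36 and 0.35). The annotation names 4 ATF4 pseudogenes, with which reads could be shared.

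Of ATF4 and the 4 partners and downstream regulators described with it, TRIB3 passed from all 8 libraries (20% called, beside 32.0% of all genes). The partners DDIT3, CEBPG and CEBPB had log2 fold changes above 0 that did not pass. DDIT3, which encodes the death-promoting factor CHOP, had 303 to 365 normalised counts in EXT1-/- libraries and 204 to 296 in WT libraries, without overlap (log2 fold change 0.31 ± 0.13 SE, adjusted p 0.0949). WT replicate 1, at 204, was the low value, and without it the log2 fold change was 0.19 (adjusted p 0.108, limma). With the set in the model DDIT3 passed at 0.38 (adjusted p 0.00565), and among low-set libraries at 0.25 (adjusted p 0.0487). Exons of MARS on the opposite strand cover 27.2% of the exon length of DDIT3, and MARS averaged 11840 ± 312 in EXT1-/- cells and 10984 ± 390 in WT cells (SD, n = 4 each), so the DDIT3 counts are uncertain unless strand was used in counting, which is not given in the sources used here. CEBPG, which pairs with ATF4, passed at 0.25 once the set was in the model (adjusted p 0.00225) and gave 0.15 ± 0.14 (SE) without it (adjusted p 0.455). Among low-set libraries it passed at 0.20 (adjusted p 0.0203, limma). In both genotypes its counts were lower in the high set, and without WT replicate 1 the log2 fold change was 0.03 (adjusted p 0.859). CEBPB, a C/EBP factor of stress and inflammation, had 288, 317, 307 and 691 normalised counts in EXT1-/- replicates 1 to 4, against 210, 264, 295 and 231 in WT replicates 1 to 4. The value of EXT1-/- replicate 4 stood far above the rest: the log2 fold change was 0.59 ± 0.27 (SE; adjusted p 0.128) with it and 0.29 (adjusted p 0.125) without it. The authors' deposited table lists CEBPB as higher, with a log2 fold change of 0.68 and an FDR of 0.0382.

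TRIB3, a pseudokinase that is induced by ATF4 and CHOP and acts back on them, fell. Its normalised counts were 195, 207, 214 and 272 in EXT1-/- replicates 1 to 4, against 254, 314, 368 and 350 in WT replicates 1 to 4. Those ranges overlapped through 1 pair of libraries, EXT1-/- replicate 4 and WT replicate 1, both of the high set. The log2 fold change was -0.53 ± 0.14 (SE; adjusted p 0.0217, limma), -0.70 among low-set libraries and -0.14 among high-set ones. The call was kept in 3 of 8 fits that left out 1 library, with adjusted p up to 0.0641.

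Among the 5 genes of amino acid and other stress, DDIT4, STC2 and VLDLR-AS1 were lower and ASNS and CHAC1 did not pass. That was 60% called, beside 32.0% of all genes. DDIT4 (chromosome 10, 72273920 to 72276036, plus strand) showed the largest difference of the 35 genes. It encodes REDD1, an inhibitor of the growth kinase mTORC1 that is induced by ATF4 and also by low oxygen, p53 and glucocorticoids. The normalised counts were 4523, 3921, 3518 and 2572 in EXT1-/- replicates 1 to 4, against 6784, 7869, 9932 and 6491 in WT replicates 1 to 4. Every EXT1-/- library lay below every WT library. The log2 fold change was -1.11 ± 0.19 (SE; adjusted p 0.00219, limma), and it was -1.10 in the low set and -0.99 in the high set. A gene antisense to DDIT4, AL683820.1 in the table, overlaps 41.2% of the exon length of DDIT4 and fell as well, averaging 232 ± 107 in EXT1-/- cells and 979 ± 223 in WT cells (SD, n = 4 each; log2 fold change -2.16 ± 0.31 SE, adjusted p 0.000879); it was named after its values were seen. The DDIT4 counts are uncertain to the extent that reads of the 2 strands were counted together, which was not tested.

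STC2, which encodes the secreted glycoprotein stanniocalcin 2, fell as well. There were 2410, 2610, 2625 and 2598 normalised counts in EXT1-/- replicates 1 to 4, against 3336, 3475, 3602 and 3400 in WT replicates 1 to 4, with no overlap between the genotypes. The log2 fold change was -0.43 ± 0.05 (SE; adjusted p 0.000309, limma) and was -0.42 and -0.41 inside the low and the high set. VLDLR-AS1, a noncoding RNA antisense to the lipoprotein receptor gene VLDLR, had 87, 97, 106 and 84 normalised counts in EXT1-/- replicates 1 to 4, against 111, 157, 138 and 147 in WT replicates 1 to 4. This was the lowest expressed of the 35 genes and again showed no overlap (log2 fold change -0.55 ± 0.14 SE, adjusted p 0.0141). VLDLR, whose exons cover 12.3% of VLDLR-AS1 on the opposite strand, fell by 1.28 ± 0.12 (SE) on the log2 scale, with 877 to 1168 counts in EXT1-/- libraries and 2013 to 2622 in WT libraries, so the antisense counts are uncertain.

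**Figure D2:**
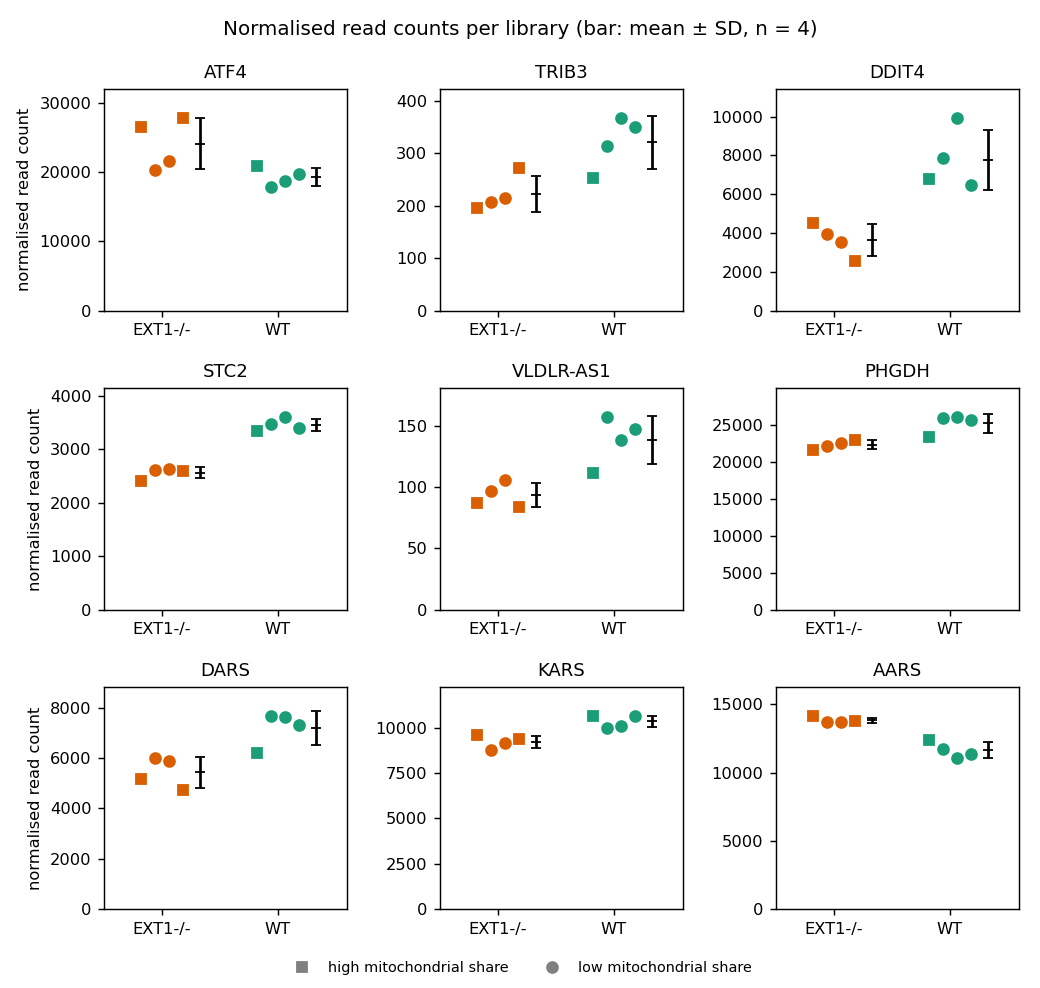
Normalised read counts in each library for ATF4 and the 8 genes called from all 8 libraries, EXT1-/- left of WT, with bars for mean ± SD (n = 4); squares are high-set and circles low-set libraries. For DDIT4, STC2, VLDLR-AS1, PHGDH, DARS and KARS every EXT1-/- point is below every WT point, for AARS every one is above, and for ATF4 and TRIB3 the points overlap.

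ASNS, asparagine synthetase, the classical ATF4 target, did not pass from all libraries. It had 10600, 13375, 14841 and 12104 normalised counts in EXT1-/- replicates 1 to 4, against 11504, 16552, 17478 and 18902 in WT replicates 1 to 4. In each genotype the high-set libraries were the lowest. The log2 fold change was -0.33 ± 0.16 (SE; adjusted p 0.159, limma), and it passed as lower once the set was in the model (-0.22, adjusted p 0.0367), among low-set libraries (-0.32, adjusted p 0.00692) and without WT replicate 1 (-0.48, adjusted p 0.0116). Among high-set libraries it was -0.02. A transcript on the same strand, AC079781.5, overlaps 44.6% of the exon length of ASNS and was not analysed here, so the ASNS counts are uncertain too. CHAC1, an enzyme that breaks down glutathione, averaged 1026 ± 186 in EXT1-/- cells and 873 ± 41.0 in WT cells (SD, n = 4 each) and did not pass in any of these fits (adjusted p 0.185 from all libraries; log2 fold change 0.22, and 0.10 without EXT1-/- replicate 4).

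Of 7 enzyme genes of serine synthesis, mitochondrial folate and phosphoenolpyruvate, 1 was lower and 6 missed the threshold (14.3% called, beside 32.0% of all genes). Their log2 fold changes ran from -0.23 to 0.09 around a median of -0.16. PHGDH, the first step from glycolysis to serine, had 21575, 22124, 22507 and 22984 normalised counts in EXT1-/- replicates 1 to 4, against 23299, 25863, 26038 and 25602 in WT replicates 1 to 4. It was lower in every EXT1-/- library, by a small amount (log2 fold change -0.18 ± 0.05 SE, adjusted p 0.0335, limma), and the call was kept in 2 of 8 fits that left out 1 library (adjusted p up to 0.104). The change was -0.21 in the low set and -0.07 in the high set. PSAT1, the aminotransferase of the second step, averaged 22535 ± 3684 in EXT1-/- cells and 21273 ± 3965 in WT cells (SD, n = 4 each). Per kilobase of the union of annotated exons it was the highest of the 35 genes in both genotypes. That order rests on the union length and not on the length of the transcripts expressed. PSPH, the phosphatase of the last step, averaged 1699 ± 115 in EXT1-/- cells and 1780 ± 219 in WT cells (SD, n = 4 each). The log2 fold changes of PSAT1 and PSPH were 0.09 and -0.06, with 95% intervals of -0.28 to 0.46 and -0.28 to 0.16. PSAT1 passed as higher when the model held the set (0.21, adjusted p 0.0137) and missed the threshold in the low set alone (0.14, adjusted p 0.0824).

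The mitochondrial folate enzymes gave a like picture. SHMT2, which splits serine into glycine and a one-carbon unit, averaged 18232 ± 1786 in EXT1-/- cells and 20286 ± 635 in WT cells (SD, n = 4 each). Its log2 fold change was -0.16 ± 0.07 (SE, adjusted p 0.128, limma). It passed when the model held the set (-0.19, adjusted p 0.0149) and among low-set libraries (-0.23, adjusted p 0.00654). MTHFD2, the next enzyme, had 7403, 10330, 10521 and 7632 normalised counts in EXT1-/- replicates 1 to 4, against 7548, 11223, 11180 and 11810 in WT replicates 1 to 4. The 3 high-set libraries, 2 of EXT1-/- and 1 of WT, were the lowest, and the groups overlapped (log2 fold change -0.22 ± 0.17 SE, adjusted p 0.376). MTHFD2 passed among low-set libraries (-0.13, adjusted p 0.0243) and missed the threshold with the set in the model (-0.09, adjusted p 0.0710) and without WT replicate 1 (-0.36, adjusted p 0.0648). The annotation names 7 MTHFD2 pseudogenes. ALDH1L2, a mitochondrial folate dehydrogenase, differed by 0.01 (95% interval -0.21 to 0.23). PCK2, the mitochondrial enzyme that makes phosphoenolpyruvate, missed the threshold at -0.23 ± 0.08 (SE, adjusted p 0.0615, limma). It passed when the model held the set (-0.19, adjusted p 0.0187) and among low-set libraries (-0.27, adjusted p 0.000989). It also passed without WT replicate 1 (-0.30, adjusted p 0.00488) and with upper quartile scaling (-0.25, adjusted p 0.0324). The annotation also names 4 pseudogenes each of PSAT1 and ASNS. Summed over the 7 enzymes, normalised counts were 72433, 81094, 85181 and 79569 in EXT1-/- replicates 1 to 4, against 74617, 87947, 87993 and 92364 in WT replicates 1 to 4; in each genotype the lowest sum was that of replicate 1.

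The synthetases differed by little: the median size of their log2 fold changes, sign ignored, was 0.10. Of 18, AARS was called higher and DARS and KARS lower (16.7% called, beside 32.0% of all genes), and the median log2 fold change was 0.03. With the set in the model 11 of the 18 passed, 6 higher and 5 lower (61.1%, beside 51.8% of all genes). Within the low set alone 8 passed, 5 higher and 3 lower (44.4%, beside 45.0% of all genes). Whether the synthetases lay below, near or above the share of all genes therefore turned on the fit. The 95% interval lay within 0.5 of 0 on the log2 scale for 17 of the 18, DARS being the exception. Their summed normalised counts were 175001, 179530, 182442 and 179751 in EXT1-/- replicates 1 to 4, against 173608, 176743, 174756 and 181140 in WT replicates 1 to 4, and these sums overlapped.

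AARS (chromosome 16, 70252295 to 70289543, minus strand), which charges tRNA with alanine and works outside the multisynthetase complex, had 14127, 13677, 13697 and 13784 normalised counts in EXT1-/- replicates 1 to 4, against 12395, 11705, 11063 and 11395 in WT replicates 1 to 4. All EXT1-/- values were above all WT values (log2 fold change 0.25 ± 0.05 SE, adjusted p 0.00524, limma). The authors' deposited table gives AARS a log2 fold change of 0.25 with an FDR of 0.0781, which does not pass. The other 9 free synthetases, for cysteine, glycine, histidine, asparagine, serine, threonine, valine, tryptophan and tyrosine, ran from -0.15 for WARS to 0.16 for VARS. GARS, the glycine enzyme, and TARS, the threonine enzyme, were each higher in the high set of both genotypes: TARS had 12384, 10743, 11227 and 12418 normalised counts in EXT1-/- replicates 1 to 4, against 11749, 10424, 10212 and 10964 in WT replicates 1 to 4. Once the set was in the model, NARS passed as higher (0.09) and SARS, WARS and YARS as lower (-0.09, -0.16 and -0.09). Among low-set libraries NARS and WARS passed (adjusted p 0.0443 and 0.0113, limma), and SARS and YARS missed the threshold (0.0633 and 0.158). Without WT replicate 1 NARS was at -0.03.

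DARS (chromosome 2, 135906677 to 135986100, minus strand) encodes the aspartate enzyme, which sits in the multisynthetase complex, a particle that holds several synthetases together. It had 5155, 5993, 5863 and 4711 normalised counts in EXT1-/- replicates 1 to 4, against 6181, 7660, 7620 and 7313 in WT replicates 1 to 4. The groups did not overlap, and in each the high-set values were the lowest (log2 fold change -0.41 ± 0.10 SE, adjusted p 0.0133, limma; -0.35 and -0.33 inside the low and the high set). KARS, the lysine enzyme of the same complex, had 8790 to 9600 normalised counts in EXT1-/- libraries and 10017 to 10648 in WT libraries, a change of -0.17 ± 0.05 (SE; adjusted p 0.0314) whose call was kept in 2 of 8 fits that left out 1 library (adjusted p up to 0.0862). The other 6 enzymes of the complex lay between -0.07 for LARS and 0.11 for MARS and QARS. QARS, the glutamine enzyme, was higher in every EXT1-/- library, with 15005 to 15546 counts beside 13835 to 14655 in WT libraries, and had an adjusted p of 0.0957 (0.0128 when the model held the set). EPRS, the enzyme for both glutamate and proline, averaged 12769 ± 1187 in EXT1-/- cells and 12990 ± 906 in WT cells (SD, n = 4 each; 95% interval of the log2 fold change -0.21 to 0.16). With the set in the model IARS, MARS and RARS also passed, higher by 0.10, 0.12 and 0.15. Among low-set libraries IARS, QARS and RARS passed (adjusted p 0.0317, 0.0302 and 0.0135, limma) and MARS missed the threshold (0.0531).

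Within a genotype these genes differed between the library sets about as much as they did between the genotypes. The log2 difference of the high from the low set had a median size of 0.17 in EXT1-/- cells and 0.16 in WT cells, where that between genotypes was 0.15; over all genes these medians were 0.21, 0.22 and 0.22. The sign was the same in both genotypes for 32 of the 35, with 20 lower and 12 higher in the high set. The share of all genes with the same sign was not computed. Across the more highly expressed genes of the table, deviations of WT replicate 1 from its group mean correlated with those of EXT1-/- replicates 1 and 4 at 0.751 and 0.639. The agreement of sign is therefore not shown to be particular to the 35. For MTHFD2 the difference was -0.47 in EXT1-/- cells and -0.59 in WT cells, for PSAT1 -0.39 in EXT1-/- cells and -0.57 in WT cells, and for ATF4 0.37 in EXT1-/- cells and 0.16 in WT cells. The high set holds 2 EXT1-/- libraries and 1 WT library, so a gene that follows the sets spreads within each group. Sets were defined from the data, and these differences are given without a test.

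**Figure D3:**
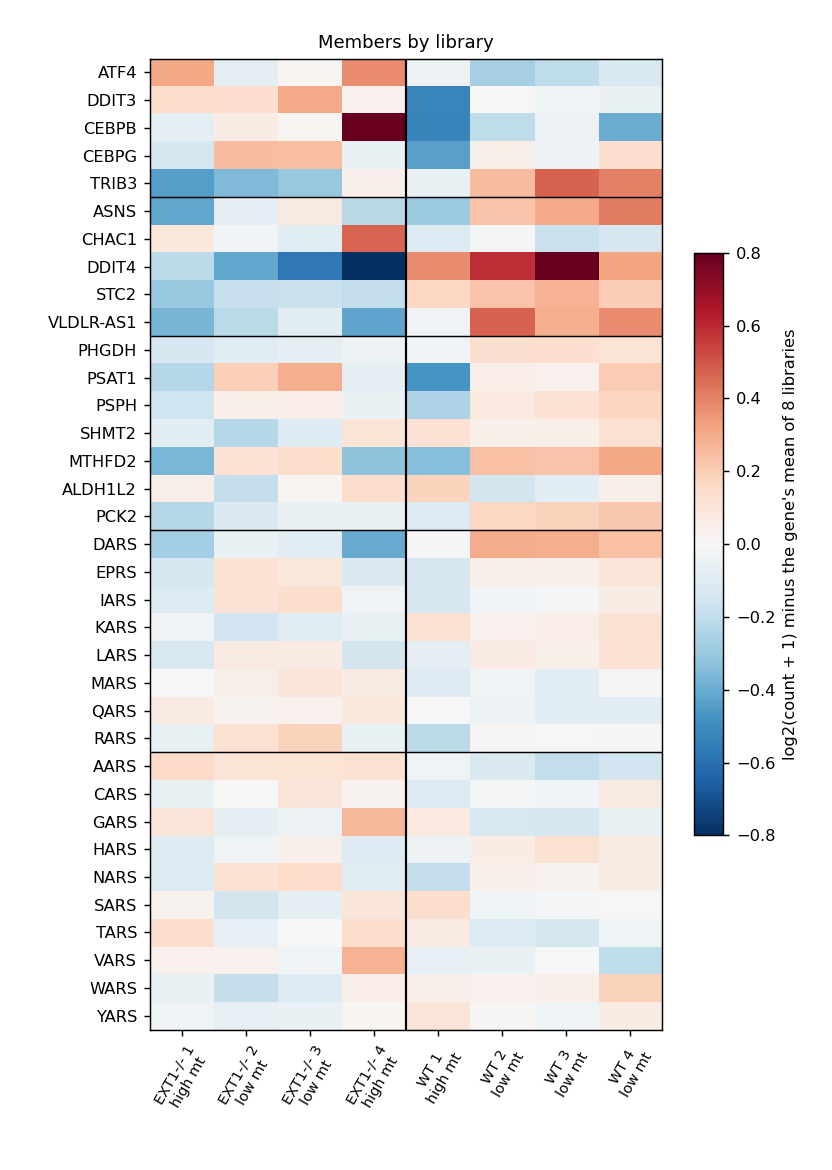
Log2(count + 1) of each gene minus its mean over the 8 libraries, with the 4 EXT1-/- libraries left of the 4 WT libraries (black line) and the mitochondrial set marked under each; colour is capped at 0.8. In the rows of DDIT4, STC2 and VLDLR-AS1 every EXT1-/- library is lower, towards blue, than every WT library. Rows such as MTHFD2 are low in EXT1-/- replicates 1 and 4 and WT replicate 1.

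The authors' deposited table, from their own fit, lists 1 of the 35 as higher (CEBPB) and 5 as lower (DARS, DDIT4, STC2, TRIB3 and VLDLR-AS1) at an FDR of 0.05, which is 17.1% beside 26.2% of all genes. These 5 were also called here in the same direction. AARS, PHGDH and KARS, which were called here as well, did not pass in the authors' fit (FDR 0.0781, 0.299 and 0.257).

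Among other genes known as ATF4 targets, 29 of 31 were in the table, where 5 were higher, 6 were lower and 18 missed the threshold (37.9% called, beside 32.0% of all genes; median log2 fold change 0.08). With the set in the model 10 were higher and 6 lower (55.2%, beside 51.8% of all genes), and the 11 calls from all libraries became 6 without WT replicate 2 and 7 without EXT1-/- replicate 1. The transporter genes went both ways. SLC7A5, the light chain of the large neutral amino acid exchanger LAT1, had 27225, 26477, 26366 and 35596 normalised counts in EXT1-/- replicates 1 to 4, against 19118, 18037, 17862 and 17158 in WT replicates 1 to 4 (log2 fold change 0.67 ± 0.10 SE). SLC6A9, the glycine transporter GLYT1, rose by 0.88 ± 0.10 (SE), and SLC43A1, a transporter of large neutral amino acids, fell by 0.88 ± 0.07 (SE), to 568 to 686 counts in EXT1-/- libraries, against 1111 to 1196 in WT libraries. With VLDLR these are the 4 of the list with the smallest adjusted p.

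Upstream of ATF4, 2 of 18 genes for eIF2, its kinases and their regulators were higher, 5 were lower and 11 missed the threshold. That was 38.9% called, beside 32.0% of all genes, with a median log2 fold change of -0.12. With the set in the model 3 were higher and 9 lower (66.7%, beside 51.8% of all genes), where 26.2% of all genes were higher and 25.6% lower. The kinases differed from each other. EIF2AK3, which encodes PERK, the sensor of unfolded protein in the endoplasmic reticulum, rose by 0.27 ± 0.06 (SE), with 990 to 1112 normalised counts in EXT1-/- libraries and 827 to 914 in WT libraries. EIF2AK2, which encodes PKR, the sensor of double-stranded RNA, had 2885 to 3077 in EXT1-/- libraries and 3610 to 4188 in WT libraries (log2 fold change -0.37 ± 0.06 SE). Kinase genes EIF2AK1 (HRI, the haem sensor) and EIF2AK4 (GCN2, the sensor of uncharged tRNA) did not pass, at 0.03 ± 0.08 and -0.08 ± 0.05 (SE). OMA1 and DELE1, which carry mitochondrial stress to HRI, fell by 0.39 and 0.24, and EIF2S2, the β subunit of eIF2, fell by 0.21.

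**Figure D4:**
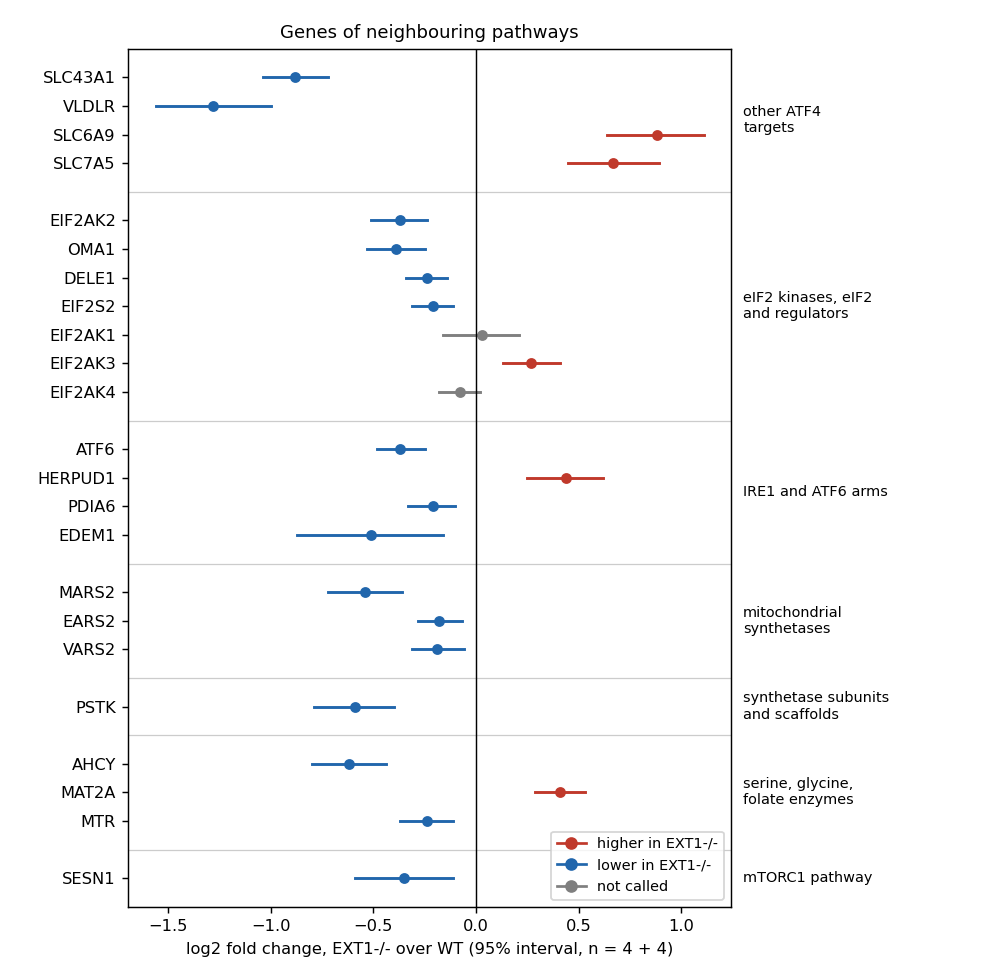
Log2 fold change, EXT1-/- over WT, with 95% limma intervals (4 libraries per group), for up to 4 called genes of small adjusted p in each neighbouring list, plus the eIF2 kinase genes. VLDLR lies at -1.28 and SLC6A9 at 0.88; EIF2AK1 and EIF2AK4 are the genes shown that did not pass.

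In the IRE1 and ATF6 arms of the unfolded protein response 2 of 18 genes were higher and 3 lower (27.8% called, beside 32.0% of all genes). Their median was 0.08, and with the set in the model 8 were higher and 4 lower (66.7%, beside 51.8% of all genes). The 5 calls became 3 without any 1 of EXT1-/- replicates 1 and 4 and WT replicates 2 and 3. HERPUD1, a factor of endoplasmic reticulum degradation, rose by 0.44, while ATF6, a sensor of that response, fell by 0.37 to 1603 to 1739 normalised counts in EXT1-/- libraries, against 2061 to 2186 in WT libraries. PDIA6, a disulfide isomerase, fell by 0.21 and EDEM1, a factor of glycoprotein degradation, by 0.51. Of 17 genes listed for mitochondrial synthetases, 3 were lower and 14 did not pass (17.6% called, beside 32.0% of all genes). Their median was -0.05, and 1 call was left without WT replicate 2, where calls over all genes went from 5063 to 3721. With the set in the model 1 was higher and 4 lower (29.4%, beside 51.8% of all genes). MARS2, EARS2 and VARS2 fell by 0.54, 0.18 and 0.19. Of 8 other subunits, scaffolds and selenocysteine enzymes, PSTK, the kinase of the selenocysteine tRNA, fell by 0.59 and 7 did not pass. That was 12.5% called, beside 32.0% of all genes. With the set in the model 1 was higher and 1 lower (25%, beside 51.8% of all genes). Among serine, glycine and folate enzymes outside the 35, 15 of 17 were in the table, and 2 were higher and 4 lower. That was 40% called, beside 32.0% of all genes, with a median of -0.12. With the set in the model 2 were higher and 6 lower (53.3%, beside 51.8% of all genes). MAT2A, which makes S-adenosylmethionine, rose by 0.41, and AHCY, which clears S-adenosylhomocysteine, and MTR, methionine synthase, fell by 0.62 and 0.24. In the mTORC1 pathway, on which REDD1 acts, SESN1 fell by 0.35 and 11 of 12 genes did not pass (8.33% called, beside 32.0% of all genes). With the set in the model 2 were higher and 2 lower (33.3%, beside 51.8% of all genes). Adjusted p values of the genes named in the last paragraphs ran from 2.71e-05 for SLC43A1 to 0.0349 for EDEM1, leaving out the kinase genes that did not pass. The calls of EDEM1, VARS2 and SESN1 were kept in 3 of 8 fits that left out 1 library, and that of EARS2 in 6 of 8, with adjusted p up to 0.0992, 0.0936, 0.0925 and 0.0596.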

How the data were processed

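Per the submitters' processing notes the authors used STAR, RSEM and edgeR with GRCh38.p10; versions and roles are not given in the sources used here. Libraries came from a kit that keeps strand, per the labels' protocols. The deposited table holds, per library, a normalised signal: whole numbers with median-of-ratios factors of 0.9924 to 1.0101, called normalised read counts, which are not raw counts. No count model was therefore run. It also holds log2 fold changes and log2 CPM, a likelihood ratio score and p-values with FDR that the authors deposited. Every gene reached 0.977 CPM or more in 2 libraries, so low genes are not in it, and all 35 genes averaged above 1 CPM in a group.

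Groups came from sample titles. Log2(value + 1) of all 15811 genes was fitted with limma 3.58.1 (R 4.3.3) with an intensity trend and genotype as the only term, two-sided, with Benjamini-Hochberg adjustment and a threshold of 0.05. Fold changes on this scale understate those of low genes. Library sets were split at the largest gap in mitochondrial share. Counts of paired libraries inside a group gave chi-squares of 4.43 to 119.59 times their degrees of freedom, so none was a repeat deposit. GENCODE 29 matched 99.8% of genes; levels per kilobase use the union of all annotated exons. TBXT and DELE1 were matched to older symbols by Ensembl ID. The fit was tested on simulated data with added fold changes. Those data held no library sets, so the test gives no detection limit for the libraries here. Tables and figures were made in Python 3.11.15 (matplotlib 3.10.9, pandas 2.3.3, scipy 1.17.1, numpy 2.4.6). Alternatives were other pseudocounts, filters, scalings and trend, a replicate block, the library set as a term, the low set alone and each library left out; folds within the high set were added after seeing the data. The genes and lists were chosen with earlier results of these data known. Every one of the 35 is named, with EXT1, VLDLR, the eIF2 kinase genes and up to 4 called genes of smallest adjusted p per list. Of the genes this rule names, 1 is not reported here.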

Additional observations from a re-analysis of the deposited data

Results flagged for a closer look

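Over the named genes, 14 of 120 groups of 4 libraries held 1 library whose gap to the nearest other, as a share of the range, exceeded Dixon's 95% limit, where chance flags about 1 in 20. Of the 14, 12 lay in high-set libraries, and 9 in WT replicate 1, the single WT library of that set. WT replicate 1 was low for DDIT3 (204, others 283 to 296), PHGDH (23299, others 25602 to 26038), MTHFD2 (7548, others 11180 to 11810), PCK2 (5331, others 6433 to 6660), RARS (3384, others 3939 to 3964), NARS (12201, others 14258 to 14604) and VLDLR (2013, others 2581 to 2622). It was high for EXT1 (1776, others 1464 to 1508) and EIF2AK1 (6657, others 5378 to 5581). EXT1-/- replicate 4 was high for CEBPB (691, others 288 to 317) and SLC7A5 (35596, others 26366 to 27225), and EXT1-/- replicate 1 was low for STC2 (2410, others 2598 to 2625). WT replicate 4, of the low set, was high for WARS (8251, others 7455 to 7473) and EIF2S2 (12382, others 11894 to 11949). All values are normalised read counts.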

How the results depend on the processing

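With the library set as a term, 8195 of all genes and 23 of the 35 described here were called, and 20 of the 35 within the low set; the cause was not tested. Leaving out 1 library gave 3721 to 6041 genes called and 5 to 11 of the 35, with 5 of the 35 without WT replicate 2, 3 or 4. AARS, DARS, DDIT4, STC2 and VLDLR-AS1 passed in all 8 such fits. EXT1 ran from -0.79 to -0.70. Pseudocounts of 0.5 and 10, median-of-ratios factors and a filter of 1 CPM in 4 libraries moved no call among the 35; VLDLR-AS1 did not enter the filter of 5 CPM. Without a trend PHGDH and KARS missed the threshold (adjusted p 0.0547 and 0.0535, limma), and scaled to totals without mitochondrial genes ATF4 passed (0.0447). No scaling moved the median of all genes by more than 0.02. Of the named genes called from all 8 libraries, each kept its direction in every fit run here. PSAT1 and NARS, which passed as higher with the set in the model, were at -0.05 and -0.03 without WT replicate 1 and did not pass there. With a replicate block 4934 genes and 11 of the 35 were called, with ATF4, ASNS and PCK2 added; deviations of same-numbered libraries correlated at -0.635 to 0.751, and EXT1-/- replicates 2 to 4 correlated best with another number, so the numbers were not taken as pairs. No detection limit was computed, so a gene that missed the threshold is not shown to be unchanged.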
